A study of Mus musculus with 10 samples.

Results

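The genes described here are 35 enzymes, carriers and electron acceptors of fatty acid beta-oxidation in mouse liver, of which 17 act in mitochondria, 14 in peroxisomes and 4 in both organelles. They were chosen by name for their place in the pathway, and every array probe annotated to them was taken. Of the 35 genes, 34 were named by at least 1 probe, out of 19057 genes named on the array, and these 34 genes had 67 of its 45281 probes. *Acad11*, an acyl-CoA dehydrogenase, had no probe under its name and was not analysed here. Of the 67 probes, 58 probes of 32 genes were above background on at least 5 of the 10 arrays and were tested.

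Beta-oxidation shortens a fatty acyl-CoA from its carboxyl end by repeated dehydrogenation, hydration, a second dehydrogenation and thiolysis. In mitochondria, long chains enter as carnitine esters and the electrons pass through the electron transfer flavoprotein to the respiratory chain. Peroxisomes take up very long, branched and some long chains through ABC transporters, oxidise them first with oxidases that yield hydrogen peroxide, and pass the shortened chains on. In mouse liver many genes of both pathways are targets of the fatty acid-activated receptor PPAR-alpha.

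On either diet the animals came from 1 line, a cross of 129S1/SvImJ with C57Bl/6J (129/B6), bred until its members were genetically alike. The WD SW group was given a Western diet, rich in fat, with sugar water, a solution of fructose and glucose. The CD group was given a chow diet, which the study pairs with plain water. Both diets lasted 8 weeks. Where the study describes the feeding, the animals are males, 8 to 12 weeks old. That is the age at which they were put on the diets, not the age at sampling. Total RNA of whole liver from 5 WD SW-fed and 5 CD-fed mice was read on Illumina bead arrays, 1 array per sample, and the replicate numbers only name the arrays.

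Probe levels are given as log2 of the fluorescence signal after background correction and quantile normalization, and a difference is the WD SW mean minus the CD mean on that scale, with its standard error (SE). A probe is called where limma's adjusted p, taken over all 17364 tested probes, was under 0.05. The p-values rest on the spread among these 10 samples only, and 5 arrays per diet limit the precision of every value. The arrays differed in brightness. The signal at the 95th percentile was 870 to 1023 on the WD SW arrays and 403 to 921 on the CD arrays, and within CD only replicate 1 was above 548. Of all probes, 41.9% to 45.5% were above background in WD SW and 33.4% to 40.9% in CD. The counts of called members are therefore also given with the brightness of the arrays as a covariate. Differences are also given against CD replicate 1 alone. In whole liver RNA, fewer cells of a type and less RNA per cell cannot be told apart.

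More member probes were higher in WD SW than lower. Of the 58 tested member probes 31 were called, beside 31.3% of all tested probes. Transcript levels were higher in WD SW for 26 of these probes (17.3% of all tested probes were called higher) and lower for 5 (14.1% of all tested probes were called lower). The WD SW and CD arrays did not overlap for 24 of the 58, beside 20.9% of all tested probes. The median difference was 0.38 over the 58 probes and -0.01 over all tested probes. Of the 26, 17 were more than 2-fold higher (5.1% of all tested probes were called and over 2-fold higher), and of the 5, 0 were more than 2-fold lower (2.08% of all tested probes). A probe could pass the filter through the WD SW arrays alone, and 13 of the 58 were above background on fewer than 5 CD arrays, 7 of which were called higher. The split followed the scaling of the arrays. When arrays were scaled to a common median in place of quantile normalization (median scaling), 20 member probes were higher and 10 lower, and the median of all tested probes moved to -0.34. Of all 17364 tested probes 1814 were then higher and 7039 lower. With that median taken over all probes instead, 37 member probes were higher and 0 lower, and the median of all tested probes moved to 0.46. Of all tested probes 8191 were then higher and 229 lower. Among the 45 member probes above background on all 10 arrays, 19 were higher and 4 lower. When only the 10830 probes of that kind were fitted, 21 member probes were higher and 4 lower, beside 1687 higher and 2377 lower of all 10830.

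Read at 1 probe per gene, the brightest, 12 of the 32 tested members were higher in WD SW (14.5% of all 10184 tested genes were called higher by the same rule) and 2 were lower (15.4% of all genes were called lower). With median scaling 9 genes were higher and 4 lower, and with scaling over all probes 19 were higher and 0 lower. The 12 were *Slc25a20*, *Acadm*, *Etfa*, *Etfdh* and *Eci1* of mitochondria, *Ehhadh*, *Acaa1b*, *Scp2*, *Decr2* and *Hacl1* of peroxisomes, and *Crat* and *Ech1* of both. The 2 lower genes were *Hadha* and *Crot*, and neither was called with the number in the sample titles as a random block. That number, whose meaning is not given, was 5 or 7 on the WD SW arrays and 12, 13 or 14 on the CD arrays. No number spanned both diets, CD replicates 1 and 2 shared 12, and CD replicates 3 and 4 shared 13. The main fit treats the arrays as independent and called 5443 of all tested probes, against 4121 with this block. By compartment, 5 of 16 mitochondrial genes were higher and 1 lower, and 5 of 13 peroxisomal genes were higher and 1 lower. With the brightness covariate 2 mitochondrial and 2 peroxisomal genes were called, all of them higher. The median difference was 0.06 over the mitochondrial genes and 0.37 over the peroxisomal genes, beside -0.05 over all genes. These medians were -0.16 and -0.0017 with median scaling and 0.64 and 0.80 with scaling over all probes. They were -0.05 and 0.14 with the brightness covariate, and 0.01 and 0.21 without CD replicates 3 and 4. The difference between the compartments was not tested. Over all tested probes in place of the brightest, the medians were 0.38 for mitochondrial and 0.37 for peroxisomal members.

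**Figure D1:**
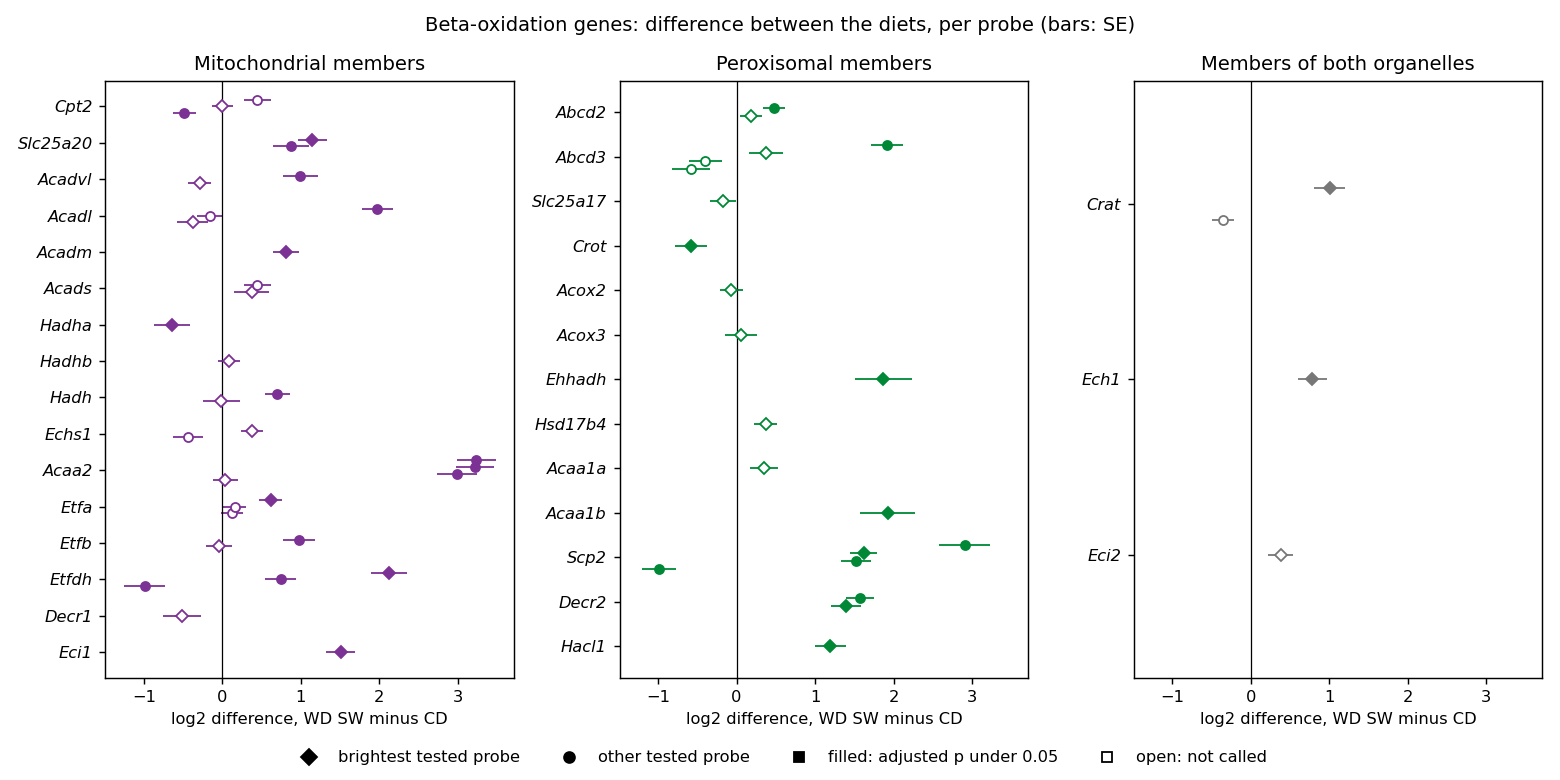
Difference between WD SW and CD (log2, horizontal axis, bars are SE) for each of the 58 tested probes, by gene and compartment, with diamonds for the brightest probe of a gene and filled symbols for called probes. Filled symbols lie mostly right of 0, and the probes of *Acaa2*, *Scp2*, *Etfdh*, *Abcd3* and *Acadl* lie far apart.

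The brightness of the arrays moved with the diet, and its part in the differences was not tested. At the 95th percentile, only CD replicate 1, at 921, lay within the WD SW range of 870 to 1023. CD replicates 2 to 5 were at 403 to 548. The covariate thus largely overlapped with the diet, and a call kept or lost with it cannot tell brightness from diet. The fit against CD replicate 1 alone takes its CD level from that array only, and cannot tell them apart either. With brightness as a covariate, 14 of the 58 member probes were called, 12 higher and 2 lower, and 4 genes by their brightest probe, all higher, namely *Etfdh*, *Eci1*, *Scp2* and *Decr2*. In that fit 812 of all 17364 tested probes were called, and the share of all genes called is not given here. The fit against CD replicate 1 alone took its spread from the WD SW arrays. Its median difference was 0.06 over the mitochondrial genes and 0.28 over the peroxisomal genes. The CD arrays also differed among themselves, and CD replicates 3 and 4 lay below the CD mean for 25 and 27 of the 32 genes, CD replicates 1, 2 and 5 for 11, 4 and 17.

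**Figure D2:**
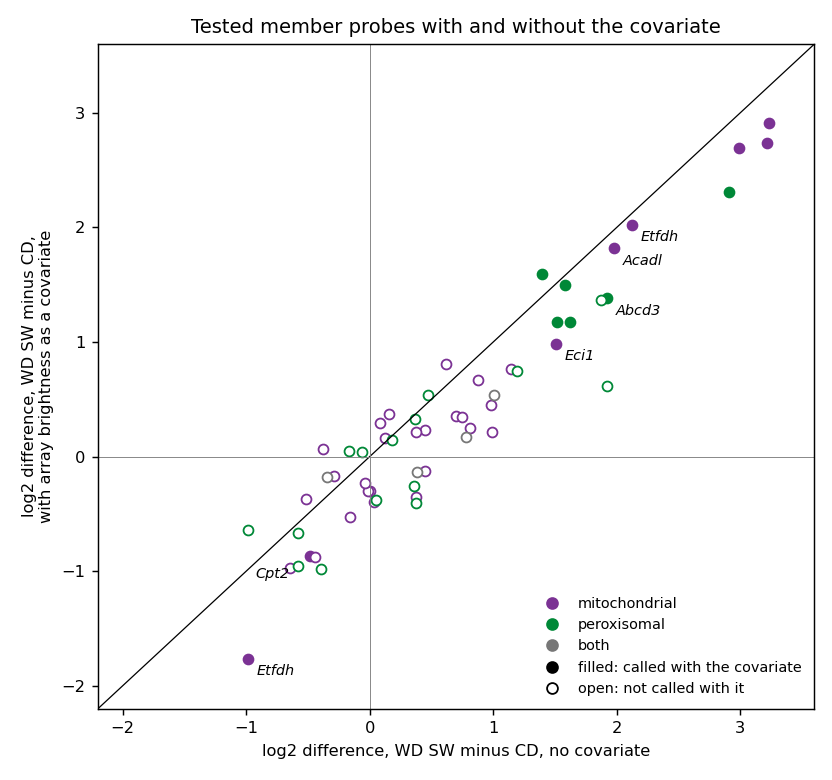
Difference between WD SW and CD (log2) of each tested member probe without (horizontal axis) and with (vertical axis) array brightness as a covariate, coloured by compartment, with the line of equality. The 14 filled probes kept a call, and most of the others that were higher lie below the line.

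The carnitine shuttle carries long-chain acyl groups across the inner mitochondrial membrane. Its entry enzyme *Cpt1a*, the rate-limiting step in liver, could not be read, since its 2 probes were above background on 1 and 0 of the 10 arrays. The carrier *Slc25a20*, which exchanges acylcarnitine for carnitine, was at 11.18, 10.84, 10.94, 11.34 and 11.54 on the WD SW arrays and at 10.33, 10.42, 9.93, 9.80 and 9.61 on the CD arrays. All 5 WD SW values lay above all CD values, and the difference was 1.15 ± 0.19 (SE, n = 5 per diet, as for all differences below), a 2.22-fold increase (limma adjusted p = 0.000436). A dim probe of the same gene, above background on 1 CD array, differed by 0.87 ± 0.23. Neither probe was called with the brightness covariate (0.76 ± 0.29 for the brighter one, adjusted p = 0.142).

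*Cpt2*, which turns the acylcarnitine back into acyl-CoA in the matrix, had 3 probes above background on all arrays, with differences of 0.00 ± 0.14, -0.48 ± 0.15 and 0.45 ± 0.17, of which only the lower one was called (limma adjusted p = 0.0210). That call was lost without WD SW replicate 1 (-0.45) and kept with the covariate (-0.87 ± 0.21). *Crat*, the carnitine acetyltransferase of both organelles, was at 7.38, 7.23, 6.86, 7.72 and 7.77 in WD SW and at 6.88, 6.45, 6.12, 6.31 and 6.15 in CD. Only WD SW replicate 3 fell within the CD range, just below CD replicate 1, and *Crat* was 2.01-fold higher in WD SW (1.01 ± 0.20, limma adjusted p = 0.00155, and 0.54 ± 0.29 without a call in the covariate fit). A dimmer *Crat* probe differed by -0.35 ± 0.14 and was not called.

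The acyl-CoA dehydrogenases of the matrix, which share the first step by chain length, had 8 tested probes of 4 genes. Of these probes 3 were called higher and none lower, beside 17.3% and 14.1% of all tested probes. *Acadm*, the medium-chain enzyme, was at 13.76, 13.56, 13.28, 13.48 and 13.60 in WD SW, against 13.22, 12.78, 12.50, 12.36 and 12.73 in CD. The diets did not overlap, but CD replicate 1 came close to the lowest WD SW array, and the difference of 0.82 ± 0.17 (limma adjusted p = 0.00218) was 0.25 ± 0.21 with the covariate and 0.37 ± 0.18 with median scaling, without a call in either. For *Acads*, the short-chain enzyme, 2 probes gave 0.38 ± 0.22 and 0.45 ± 0.17, and neither was called. The very-long-chain enzyme *Acadvl* and the long-chain enzyme *Acadl* had probes that differed from each other and are described with the other genes of that kind below.

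The later steps of the mitochondrial spiral had 10 tested probes, 4 of them called higher and 1 lower. Of all tested probes 17.3% were called higher and 14.1% lower. *Acaa2* (below) held 3 of the 4 higher probes, and its brightest probe was not called. The trifunctional protein, which performs them for long chains at the inner membrane, is made of *Hadha* and *Hadhb*. The only *Hadha* probe, annotated to a cDNA clone, was at 6.20, 6.12, 5.92, 6.21 and 6.66 in WD SW and at 7.05, 7.15, 6.48, 6.15 and 7.49 in CD. The diets overlapped, through CD replicates 3 and 4, and the difference was -0.64 ± 0.23 (limma adjusted p = 0.0454). This probe was dim, with signals before correction of 130 to 170 in WD SW and 103 to 209 in CD. The call was lost in the authors' normalized values (-0.39), with the number in the sample titles as a random block (-0.67, limma adjusted p = 0.0674) and without any 1 of 7 arrays, WD SW replicates 1 to 4 and CD replicates 1, 2 and 5, with differences between -0.64 and -0.48. The *Hadha* call was also lost without background correction, with a larger background offset, without the background filter and with scaling over all probes. With the brightness covariate it was lost too (-0.97 ± 0.38, limma adjusted p = 0.153). *Hadhb* differed by 0.09 ± 0.14 and was not called. Of the soluble enzymes, the hydratase *Echs1* gave 0.38 ± 0.14 at its brighter probe, without a call (limma adjusted p = 0.0515), and -0.44 ± 0.19 at a probe for a cDNA clone. The dehydrogenase *Hadh* gave -0.01 ± 0.23 at its brighter probe and 0.70 ± 0.16 (limma adjusted p = 0.00442) at a dimmer probe that was above background on 1 CD array and differed by 0.03 with median scaling.

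*Eci1*, the isomerase that moves the double bond of unsaturated fatty acids into the position the spiral can use, was at 11.38, 10.87, 10.81, 11.18 and 11.15 in WD SW and at 10.03, 9.85, 9.08, 9.45 and 9.45 in CD. The diets were well apart, *Eci1* was 2.84-fold higher in WD SW (1.51 ± 0.18, limma adjusted p = 5.23e-05), and it stayed called with the covariate (0.98 ± 0.26) and in the fit against CD replicate 1 alone (1.04 ± 0.24). *Decr1*, the mitochondrial 2,4-dienoyl-CoA reductase that serves the same kind of fatty acids, differed by -0.52 ± 0.24 and was not called. *Ech1*, the dienoyl-CoA isomerase of both organelles, was higher by 0.78 ± 0.18 (limma adjusted p = 0.00536), and *Eci2*, an isomerase of both, differed by 0.38 ± 0.16 without a call. *Ech1* differed by 0.17 ± 0.24 with the covariate and by 0.47 ± 0.21 with median scaling, without a call in either.

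The electrons of the first step pass through the flavoprotein made of *Etfa* and *Etfb* to its dehydrogenase *Etfdh*, which hands them to ubiquinone. *Etfa* had 3 probes above background on all arrays, with differences of 0.62 ± 0.15, 0.15 ± 0.15 and 0.12 ± 0.14, of which the first, the brightest, was called (limma adjusted p = 0.00562). That *Etfa* call was lost with median scaling (0.12 ± 0.18), with the covariate (0.81 ± 0.24, limma adjusted p = 0.0672) and with the 3 probes averaged (0.30 ± 0.13), and kept against CD replicate 1 alone (0.92 ± 0.19). *Etfb* gave -0.04 ± 0.16 at its brightest probe and 0.98 ± 0.20 (limma adjusted p = 0.00251) at the other. *Etfdh* was at 10.64, 9.84, 9.84, 9.75 and 9.83 in WD SW at its brightest probe, and at 7.58, 8.68, 7.79, 7.50 and 7.72 in CD. WD SW replicate 1 and CD replicate 2 stood above the rest of their diets, the diets were more than 1 log2 unit apart, and the increase was 4.36-fold (2.12 ± 0.23, limma adjusted p = 2.18e-05, and 2.02 ± 0.39 with the covariate).

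Another *Etfdh* probe went the other way. Annotated to a cDNA clone, it was at 6.29, 6.26, 6.38, 6.39 and 6.93 in WD SW and at 8.20, 7.94, 6.51, 7.13 and 7.41 in CD. Only WD SW replicate 5 rose into the CD range, and the difference was -0.99 ± 0.26 (limma adjusted p = 0.0109, and -1.77 ± 0.37 with the covariate). The last tested probe was at 6.92, 6.97, 6.38, 6.44 and 6.79 in WD SW and at 6.15, 6.06, 6.30, 5.26 and 6.01 in CD, without overlap (0.74 ± 0.20, limma adjusted p = 0.0102). The tested *Etfdh* probes were thus called in both directions, but the lower call came from the dim cDNA clone probe. Before correction its signals were 156 to 196 in WD SW and 112 to 413 in CD. CD replicates 3, 4 and 5, at 112, 133 and 155, were then below every WD SW array.

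In peroxisomes, fatty acids enter through ABC transporters. *Abcd3*, the main one in liver, had 4 tested probes that differed from each other (below), and *Abcd2*, an adrenoleukodystrophy-related transporter, was near background. At its called probe, *Abcd2* was above background on all 5 WD SW arrays and on 0 CD arrays and was at least 1.11-fold higher (limma adjusted p = 0.0196), and this call was lost in the authors' values (0.16), without WD SW replicate 1 (0.44) and with median scaling, where the difference turned to -0.23. Its other probe differed by 0.18 ± 0.14 and was not called. *Slc25a17*, a carrier of CoA and other cofactors, differed by -0.17 ± 0.17 and was not called. *Crot*, the octanoyltransferase that prepares shortened chains for export, was at 5.14, 5.28, 5.13, 5.38 and 5.54 in WD SW and at 5.78, 6.18, 5.97, 5.10 and 6.35 in CD. Its signals were near background, and it was above background on 5 WD SW and 4 CD arrays. CD replicate 4 was as low as the lowest WD SW arrays, and the difference of -0.58 ± 0.20 (limma adjusted p = 0.0421) lost its call in the authors' values (-0.29), with the number in the sample titles as a random block (-0.61, limma adjusted p = 0.0747) and without any 1 of 7 arrays, WD SW replicates 1 to 4 and CD replicates 2, 3 and 5, with differences between -0.60 and -0.46. The *Crot* call was also lost without background correction, with a larger background offset, without the background filter and with scaling over all probes. With the brightness covariate it was lost too (-0.67 ± 0.35, limma adjusted p = 0.291).

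The first peroxisomal step is catalysed by acyl-CoA oxidases. Of those read here, *Acox2*, the branched-chain and bile acid enzyme, differed by -0.06 ± 0.15 and *Acox3* by 0.05 ± 0.20, and neither was called. The next steps are carried by 2 bifunctional enzymes. *Ehhadh*, the L-bifunctional enzyme, was at 10.96, 10.19, 9.33, 9.86 and 10.08 in WD SW and at 8.33, 8.68, 7.34, 7.39 and 9.34 in CD. Its CD arrays spread widely, CD replicate 5 reached the lowest WD SW array, and the difference was 1.87 ± 0.36 (3.65-fold, limma adjusted p = 0.00152). It was 1.37 ± 0.60 without a call in the covariate fit and 1.75 ± 0.44, called, against CD replicate 1 alone. *Hsd17b4*, the D-bifunctional enzyme, differed by 0.37 ± 0.14 and was not called (limma adjusted p = 0.0602).

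The last peroxisomal step is catalysed by 3 thiolase genes, of which *Acaa1a* and *Acaa1b* are paralogs that both lie on chromosome 9 and *Scp2* encodes a thiolase for branched chains. *Acaa1b* was at 14.80, 14.58, 14.37, 14.73 and 14.84 in WD SW and at 13.81, 13.61, 11.70, 11.81 and 12.77 in CD. The WD SW arrays were tightly grouped and above all CD arrays, whereas the CD arrays spread widely, with replicates 3 and 4 lowest. In WD SW this was the brightest member probe (mean 14.66), near the liver genes *Apoa1* (14.83) and *Ttr* (14.74). Whether the top of the signal range narrowed its WD SW values or its difference was not tested. The difference was 1.92 ± 0.35, a 3.80-fold increase (limma adjusted p = 0.000941). It was 0.62 ± 0.41 without a call in the covariate fit and 0.85 ± 0.22, called, against CD replicate 1 alone.

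*Acaa1a* was at 12.67, 12.81, 12.98, 12.74 and 12.95 in WD SW and at 13.09, 12.64, 12.21, 12.11 and 12.32 in CD. Its WD SW arrays were as tight as those of *Acaa1b*, CD replicate 1 lay above them all, and the difference of 0.35 ± 0.18 was not called (limma adjusted p = 0.144). The difference between the paralogs was not tested, and whether either probe also reads the other transcript was not tested. Because the 2 genes are paralogs, the 250 bases upstream of their RefSeq transcript starts are shown, with matches to the CCAAT box (CCAAT or its complement ATTGG, both strands searched) in capitals. The *Acaa1b* window is chr9:119157094-119157343 on the minus strand and the *Acaa1a* window chr9:119341044-119341293 on the plus strand (GRCm38.p6). The start listed for *Acaa1a* lies inside its annotated span of chr9:119341028-119350296, so that its whole window is within the annotated gene.
Acaa1b: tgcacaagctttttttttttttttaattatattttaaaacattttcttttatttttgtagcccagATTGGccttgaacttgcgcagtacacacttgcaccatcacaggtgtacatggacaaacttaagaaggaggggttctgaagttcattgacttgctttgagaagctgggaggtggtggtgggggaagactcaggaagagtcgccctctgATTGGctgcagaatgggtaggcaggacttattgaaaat
Acaa1a: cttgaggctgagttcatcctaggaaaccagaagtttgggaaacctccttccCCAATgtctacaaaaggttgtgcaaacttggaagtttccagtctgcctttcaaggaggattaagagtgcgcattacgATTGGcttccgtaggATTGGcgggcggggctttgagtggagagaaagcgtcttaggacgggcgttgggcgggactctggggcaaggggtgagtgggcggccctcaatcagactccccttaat
The *Acaa1b* window held 2 matches and the *Acaa1a* window 3. A CCAAT match was present upstream of 14 of the 30 members that the RefSeq promoter table lists and of 33.9% of all 32851 windows in it, and a match describes the letters only.

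*Scp2* makes both a thiolase, SCPx, and a lipid carrier, SCP2, from separate transcript starts, and the array held 4 tested probes for it. The brightest was at 13.86, 13.43, 13.45, 13.71 and 13.52 in WD SW and at 12.35, 12.25, 11.84, 11.94 and 11.48 in CD. The WD SW arrays lay more than 1 log2 unit above the highest CD array, a 3.08-fold increase (1.62 ± 0.17, limma adjusted p = 1.93e-05). The second was at 13.20, 12.88, 12.76, 13.07 and 12.95 in WD SW and at 11.69, 11.90, 11.37, 11.52 and 10.77 in CD, with the same order of the diets (1.52 ± 0.19, limma adjusted p = 6.03e-05).

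A dimmer *Scp2* probe was at 12.09, 10.54, 11.24, 11.36 and 10.72 in WD SW and at 8.54, 9.36, 7.92, 7.95 and 7.65 in CD. The gap between the diets was 7.49-fold at this probe (2.91 ± 0.32, limma adjusted p = 2.66e-05). The dimmest was at 5.76, 5.86, 5.21, 5.59 and 5.85 in WD SW and at 6.00, 7.0, 7.05, 6.18 and 6.94 in CD, so that all CD arrays lay above all WD SW arrays (-0.99 ± 0.22, limma adjusted p = 0.00373). Before correction its signals were 97 to 130 in WD SW and 103 to 146 in CD, near background levels of 78 to 87 and 82 to 88. With the covariate the 3 higher probes stayed called (1.18 ± 0.25, 1.17 ± 0.30 and 2.31 ± 0.51) and the lower one did not (-0.64 ± 0.35).

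The receptor PPAR-alpha binds with its partner RXR to repeats of the half-site AGGTCA. Within 250 bases upstream of the start, the spaced repeat AGGNCANAGGNCA (both strands) was present in 0 of the 30 members listed and in 0.338% of all windows. The single half-site was present in 5 of the 30, *Acadm*, *Acadvl*, *Cpt1a*, *Echs1* and *Scp2*, and in 14.02% of all windows. The windows of *Acadm* and *Scp2*, the 2 of these genes whose brightest probe was higher in WD SW, are shown with the match (AGGTCA or its complement TGACCT) in capitals, chr3:153944644-153944893 and chr4:108118548-108118797, both on the minus strand of GRCm38.p6. The start listed for *Scp2* lies inside its annotated span of chr4:108043830-108144971.
Acadm: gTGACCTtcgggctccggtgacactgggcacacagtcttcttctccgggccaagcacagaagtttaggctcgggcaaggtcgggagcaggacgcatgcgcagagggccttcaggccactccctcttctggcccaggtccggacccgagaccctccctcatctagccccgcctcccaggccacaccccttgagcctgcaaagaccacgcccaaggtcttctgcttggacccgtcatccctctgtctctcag
Scp2: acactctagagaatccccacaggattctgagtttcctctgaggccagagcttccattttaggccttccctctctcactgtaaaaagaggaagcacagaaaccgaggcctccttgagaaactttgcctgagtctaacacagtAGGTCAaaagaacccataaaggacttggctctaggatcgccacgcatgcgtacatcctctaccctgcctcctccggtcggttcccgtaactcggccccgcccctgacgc
Each window holds 1 match, which describes these letters only. Elements further away or within introns were not searched.

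The remaining peroxisomal members act on unsaturated and branched fatty acids. *Decr2*, the peroxisomal 2,4-dienoyl-CoA reductase, was at 7.03, 6.33, 7.09, 7.07 and 7.19 in WD SW and at 5.60, 4.99, 5.52, 5.87 and 5.74 in CD. WD SW replicate 2 was lower than the other WD SW arrays and still above every CD array, and the increase was 2.63-fold (1.40 ± 0.20, limma adjusted p = 0.00015). This probe was above background on 4 CD arrays. Its CD signals before correction were 90 to 112, near CD background levels of 82 to 88, so that the fold change rests on a CD level near background. A second probe, above background on all 5 WD SW arrays and on 2 CD arrays, so that its CD level rests on signals near background, gave 1.58 ± 0.18 (limma adjusted p = 2.87e-05), and with the covariate both stayed called, at 1.59 ± 0.32 and 1.49 ± 0.30. *Decr2* was thus higher in WD SW at both probes, while its mitochondrial counterpart *Decr1* was not called, and the difference between the genes was not tested.

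*Hacl1*, which cleaves formyl-CoA from the alpha-oxidised chain of phytanic acid, was at 7.04, 6.23, 5.97, 6.50 and 6.41 in WD SW and at 5.52, 5.53, 5.07, 5.04 and 5.01 in CD. The diets did not overlap, the probe was above background on 2 CD arrays, and the difference was 1.20 ± 0.19 (2.29-fold, limma adjusted p = 0.000429, and 0.75 ± 0.29 without a call in the covariate fit). *Phyh*, which hydroxylates phytanoyl-CoA before it, had 1 probe, above background on 2 of the 10 arrays, and was not tested.

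**Figure D3:**
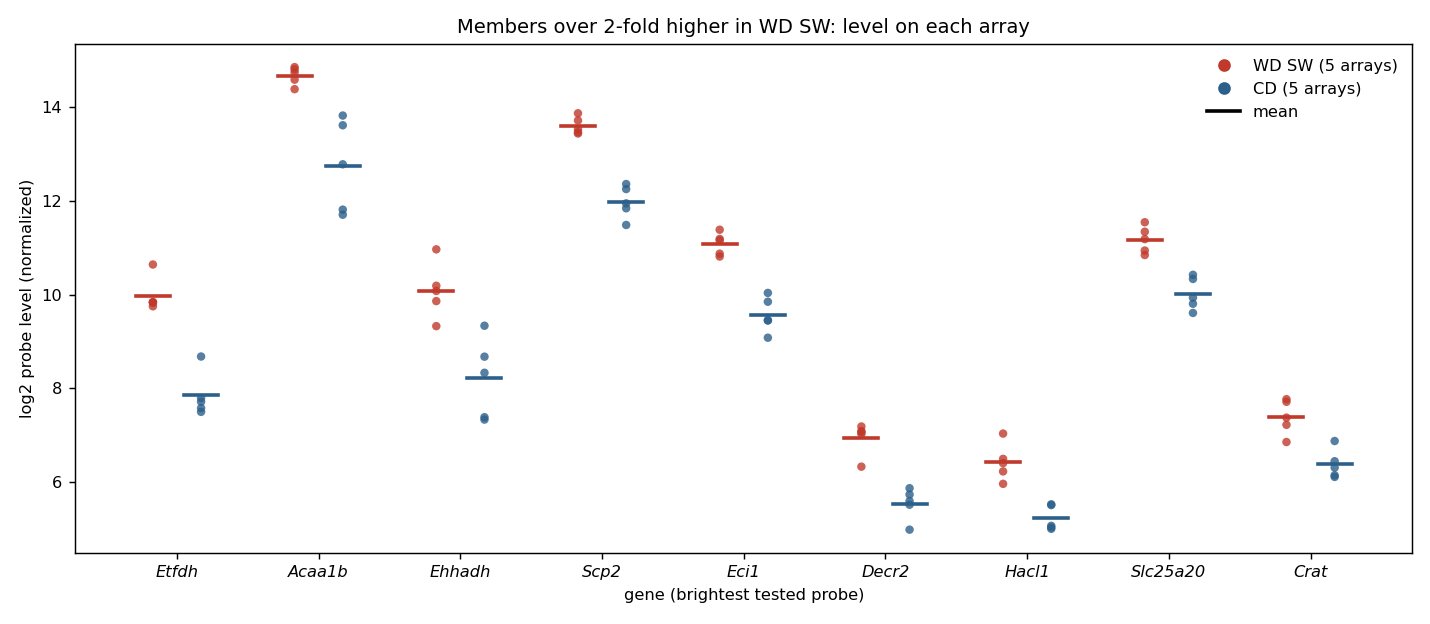
Level (log2, vertical axis) on each array of the 9 members whose brightest probe was called more than 2-fold higher in WD SW, with WD SW left of CD and bars at the means. The diets overlap only for *Ehhadh* and *Crat*, and the CD arrays of *Acaa1b* and *Ehhadh* spread most.

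For several members the brightest probe did not stand for the others. Of the 16 members with several tested probes, 8 had differences spread over more than 1 log2 unit, as had 538 of the 3366 such genes on the array. Probes were called in opposite directions for 2 of the 16, *Scp2* and *Etfdh*, beside 4.99% of the 3366. Counting any probe, 19 of the 32 members had at least 1 probe called higher (21.2% of the 10184 tested genes) and 5 at least 1 called lower (18.1%). Members had 1.81 tested probes per gene and all genes 1.46, and a gene with more probes has more chances to be counted. All tested probes were called higher for 8 members, all lower for 2 (*Hadha* and *Crot*, with 1 tested probe each), and 10 members had no called probe. The matching shares of all genes were not computed, so these counts do not set the members apart from other genes.

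*Acaa2*, the mitochondrial thiolase, had the largest differences of all members, but not at its brightest probe. That probe was at 10.92, 10.74, 10.68, 10.42 and 10.80 in WD SW and at 11.13, 10.67, 10.34, 10.71 and 10.52 in CD, with full overlap (0.04 ± 0.16, limma adjusted p = 0.877). Another was at 10.73, 9.30, 10.10, 10.18 and 9.56 in WD SW and at 6.86, 7.31, 6.57, 6.49 and 6.48 in CD, a 9.41-fold increase (3.23 ± 0.25, limma adjusted p = 1.32e-06). The other 2 probes gave 3.22 ± 0.24 and 2.99 ± 0.26 with no overlap between the diets. All 3 were highest on WD SW replicate 1 and lowest on WD SW replicate 2 among the WD SW arrays, and with the covariate they stayed called, at 2.91 ± 0.41, 2.73 ± 0.37 and 2.69 ± 0.43.

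*Acadl* and *Acadvl* also had a called probe beside a brighter one that was not called. At 1 *Acadl* probe the level was 7.82, 6.68, 6.95, 7.0 and 6.76 in WD SW and 5.13, 5.02, 4.94, 4.92 and 5.30 in CD, where it was above background on 2 arrays. The diets were far apart (1.97 ± 0.19, limma adjusted p = 1.10e-05, and 1.82 ± 0.33 with the covariate), whereas its other 2 probes gave -0.38 ± 0.20 and -0.16 ± 0.17 without a call. For *Acadvl*, 1 probe gave 0.99 ± 0.22 (limma adjusted p = 0.00384) and the brighter one -0.29 ± 0.15 without a call. The *Acadvl* increase was 0.22 ± 0.27 with the covariate.

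*Abcd3* was at 10.67, 9.86, 9.47, 10.09 and 10.001 in WD SW at 1 probe and at 8.55, 8.02, 8.18, 7.84 and 7.93 in CD, a 3.78-fold increase without overlap (1.92 ± 0.20, limma adjusted p = 2.01e-05, and 1.38 ± 0.30 with the covariate). Its brightest probe gave 0.37 ± 0.22, and the other 2 gave -0.40 ± 0.21 and -0.58 ± 0.24, none of them called. Against CD replicate 1 alone these last 2 were called lower, at -0.98 ± 0.23 and -1.19 ± 0.26, while the first stayed higher, at 1.47 ± 0.35.

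**Figure D4:**
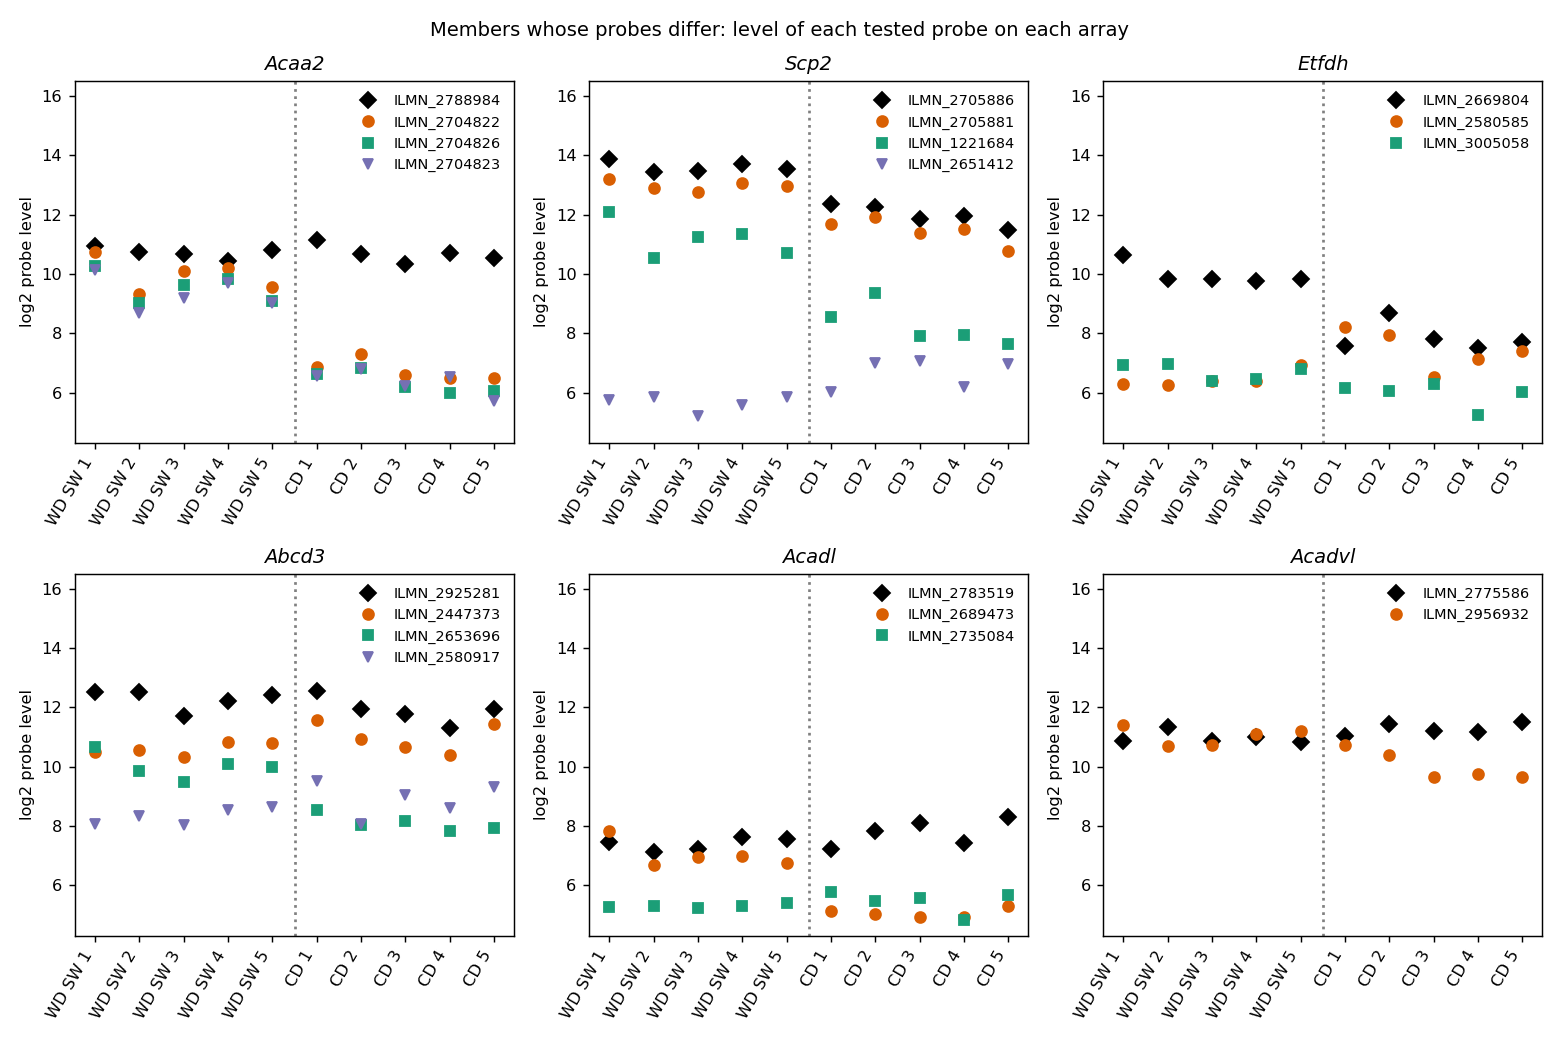
Level (log2, vertical axis) of each tested probe of *Acaa2*, *Scp2*, *Etfdh*, *Abcd3*, *Acadl* and *Acadvl* on each array (horizontal axis, WD SW left of CD), with black diamonds for the brightest probe. For *Acaa2*, 3 probes are far lower in CD than in WD SW while the brightest is level, and for *Scp2* and *Etfdh* 1 probe is higher in CD.

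The probe annotation moved with these differences. Of the 58 tested member probes, 54 were annotated to a RefSeq transcript, of which 26 were higher and 3 lower, and 4 to a cDNA clone, of which 0 were higher and 2 lower, with differences that were all below 0. Over the whole array, 6.0% of the 840 tested cDNA clone probes were called higher and 16.8% lower, against 18.4% higher and 13.5% lower of the 13746 RefSeq probes. Which transcript or exon each probe reads was not tested.

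Genes around the pathway were read at their brightest tested probe. By that rule 14.5% of all 10184 tested genes were called higher and 15.4% lower. Of the other genes of fatty acid oxidation, 18 of 23 were tested, 1 was higher and 3 lower, with a median of 0.04. The higher gene was *Acad9*, an acyl-CoA dehydrogenase that also serves the assembly of respiratory complex I (0.94 ± 0.22, limma adjusted p = 0.00499). The lower genes were *Pecr*, the peroxisomal trans-2-enoyl-CoA reductase (-1.07 ± 0.21, limma adjusted p = 0.00174), *Acadsb*, which oxidises short branched chains (-0.72 ± 0.16), and *Nudt7*, a peroxisomal CoA hydrolase (-0.63 ± 0.14, with probes from -1.44 to 0.05). Only *Pecr* stayed called with the brightness covariate (-1.51 ± 0.33).

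Of the genes of peroxisome biogenesis, 13 of 16 were tested. Of these, 4 were higher and 0 lower (14.5% and 15.4% of all genes), with a median of 0.08 (-0.12 with median scaling). The higher genes included *Pex7*, the import receptor for peroxisomal thiolase and other proteins with its type of targeting signal (1.33 ± 0.21, limma adjusted p = 0.000325), and *Pex11g* and *Pex11a*, which act in peroxisome division (1.06 ± 0.25 and 0.92 ± 0.25, with another *Pex11g* probe at -1.15). None was called with the covariate, and *Pex7* was called against CD replicate 1 alone (0.86 ± 0.21).

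Of the targets of PPAR-alpha outside beta-oxidation, 12 of 16 were tested. Of these, 8 were higher and 0 lower (14.5% and 15.4% of all genes), with a median of 1.31 (1.02 with median scaling). The largest increases were those of *Cyp4a14*, a fatty acid omega-hydroxylase (4.34 ± 0.67, limma adjusted p = 0.000312), and of the lipid droplet genes *Cidec*, above background on 0 CD arrays and at least 5.91-fold higher (limma adjusted p = 2.78e-07), and *Plin2* (2.55 ± 0.29, limma adjusted p = 2.87e-05). With the covariate 4 of the 8 stayed called, among them *Cidec* and *Plin2*, and *Cyp4a14* did not. Of 6 tested genes of the receptor and its partners, *Ppara* itself was higher (0.93 ± 0.17, limma adjusted p = 0.00112) and *Hnf4a*, a nuclear receptor of hepatocytes, was lower (-0.53 ± 0.18, limma adjusted p = 0.0385), and neither was called with the covariate.

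Markers of the cells in the liver moved as well, and their part in the differences of the members was not tested. They too were read at the brightest tested probe, where 14.5% of all genes were called higher and 15.4% lower. All 8 hepatocyte markers were above background on every array, and 5 of them were lower in WD SW (1 with the covariate). These were *Apoh* (-0.85), *Serpinc1* (-0.56), *Tat* (-0.54), *Hnf4a* (-0.53) and *Alb* (-1.93 ± 0.22). The *Alb* probe was dim for these markers, with means of 7.16 in WD SW and 9.09 in CD, against 14.83 and 14.61 for *Apoa1*. *Apoa1*, *Ttr* and *Cps1* differed by 0.22, -0.03 and 0.32 and were not called. The summed level of the markers, in which the bright *Apoa1* and *Ttr* weigh most, was 64469 to 74689 in WD SW and 64323 to 74286 in CD. Of the macrophage markers 5 of 8 were tested and 1, *Csf1r*, was higher (0.91 ± 0.20; 2 were with the covariate), with summed levels of 1668 to 2659 in WD SW and 1104 to 2457 in CD. Of 7 stellate cell markers 3 were higher (*Lrat*, *Col1a1* and *Col3a1*, by 0.59 to 0.64, none called in the authors' values or with the covariate), with summed levels of 1869 to 2547 in WD SW and 1601 to 2026 in CD. Of 6 endothelial markers *Lyve1* was higher and *Kdr* lower, with summed levels of 3360 to 4711 in WD SW and 2776 to 4772 in CD. The only tested cholangiocyte marker, *Sox9*, was lower (-2.09 ± 0.23), at a level of 292 to 519 in WD SW and 978 to 2262 in CD, *Krt19*, *Krt7* and *Epcam* being untested. Of 2 erythroid markers *Hba-a1* was higher (0.90 ± 0.21), with summed levels of 4889 to 6677 in WD SW and 2769 to 4630 in CD. Of 7 lymphocyte markers 1 was tested and not called. Of the markers of adipocytes and of skeletal and cardiac muscle, 5 of each were on the array and 0 passed the filter.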

How the data were processed

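Liver RNA of 10 mice, 5 per diet, was hybridised to 1-colour Illumina bead arrays, and diets were taken from the sample labels. The authors deposited a table of linear probe intensities that were not normalized and another of intensities normalized by a method not given in the sources used here, whose log2 values served as an alternative. The deposited tables gave no detection p-value to this work. The background of an array was the mode of its log2 signals (kernel bandwidth 0.02) and its spread the SD below the mode. Probes above background (one-sided p of 0.05) on at least 5 of 10 arrays were tested. Intensities were background corrected with normexp (offset 16), quantile normalized and tested with limma 3.58.1 in R 4.3.3, without covariates, with Benjamini-Hochberg adjustment over 17364 probes. The fit was tested on simulated data. Quantile normalization hides a shift of most genes, and dim arrays compress low signals.

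Of 45281 probes 34885 had 1 gene symbol, 18 several and 10378 none, and 34807 matched the GRCm38.p6 RefSeq table by gene identifier. The brightest tested probe stood for a gene. Where a probe was above background on no array of a diet, its fold is a bound against the lowest detected signal of each array. Members, lists, tests and alternatives were chosen with earlier results of these data known. Members called over 2-fold, or with probes called in opposite directions, are given on every array. From each list around the pathway up to 3 called genes per direction with the largest change are named. Members given on every array outside this rule were chosen after their values were seen. Upstream sequences are from RefSeq.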

Additional observations from a re-analysis of the deposited data

Results flagged for a closer look

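In 98 groups of 5 arrays (2 diets for each brightest or called member probe), 10 had an array whose gap to its nearest neighbour exceeded 0.71 of the range of the group (Dixon's criterion), where chance flags about 1 in 20 groups. *Etfdh* held 4 of them. At its brightest probe, WD SW replicate 1 was at 10.64 and the other WD SW arrays at 9.75 to 9.84, and CD replicate 2 was at 8.68 and the other CD arrays at 7.50 to 7.79. The difference was 1.96 without the first array and 2.33 without the second. At its cDNA clone probe, WD SW replicate 5 was at 6.93, above the rest at 6.26 to 6.39, and the difference without it was -1.11. At its dimmest tested probe, CD replicate 4 was at 5.26, below the rest at 6.01 to 6.30, and the difference without it was 0.57.

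*Hadh* and *Acadl* had arrays apart in WD SW. At the brighter *Hadh* probe WD SW replicate 3 was at 5.43 and the rest at 5.79 to 5.89, and at the dimmer one WD SW replicate 1 was at 5.96 and the rest at 5.31 to 5.48, so that the difference without it was 0.59. At the called *Acadl* probe WD SW replicate 1 was at 7.82 and the rest at 6.68 to 7.0, with a difference of 1.78 without it. *Etfb* was at 11.23 on WD SW replicate 4 at its brightest probe, below the rest at 11.49 to 11.58. *Decr2* was at 6.33 on WD SW replicate 2, below the rest at 7.03 to 7.19, and its difference without that array was 1.55. *Eci2* was at 10.17 on CD replicate 1, above the other CD arrays at 9.47 to 9.65, and its difference without that array was 0.50. WD SW replicate 1 was the array apart in 3 of the 10 cases.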

How the results depend on the processing

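The count of called member probes, 31, was 14 with the brightness covariate, 19 against CD replicate 1 alone and 27 to 37 with each array left out. The count of called genes, 14, was 4 and 7 in those fits and 12 to 19 with each array left out. The shares of all genes called in those fits are not given here, so the gene counts in them do not set the members apart. Both counts stayed within 1.5 times their value in the other fits, but their split did not. The 26 higher and 5 lower probes were 20 and 10 with median scaling and 37 and 0 with scaling over all probes, and the 12 higher and 2 lower genes were 9 and 4 with median scaling, 19 and 0 with scaling over all probes, and 12 and 0 with the number in the sample titles as a random block. Without background correction, with an offset of 50 and in the authors' values all 14 called genes were higher. Median scaling over the probes above background on all arrays moved the median of all probes to -0.34, and 20.5% of all calls were then higher, against 55.1%. Scaling over all probes, added after seeing the data, gave 0.46 and 97.3%. With detection on all 10 arrays 41.5% of calls were higher.

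The mitochondrial median, 0.06, was -0.05 with the covariate, 0.01 without CD replicates 3 and 4, -0.16 with median scaling, 0.64 with scaling over all probes, 0.38 with the probes of a gene averaged, 0.35 with the median of its probes (also added later) and 0.02 to 0.13 with each array left out. The peroxisomal median, 0.37, was 0.14 with the covariate, 0.21 without CD replicates 3 and 4, -0.0017 with median scaling, 0.80 with scaling over all probes and 0.26 to 0.51 with each array left out. With scaling over all probes *Hadha* turned to 0.080 and the called *Cpt2* probe to 0.061, and with median scaling the called *Abcd2* probe turned to -0.23. Over all tested probes 5443 were called, against 812 with the covariate, 1623 against CD replicate 1 alone, 8853 with median scaling and 8420 with scaling over all probes. Of 31 called member probes, 14 kept their call with the covariate, 17 against CD replicate 1 alone, 25 with median scaling, 26 with scaling over all probes, 28 with the number in the sample titles as a random block and 28 in the authors' values. The cause of these changes was not tested. The count of probes has no value where probes were merged or 1 was kept per gene. No paired analysis was possible because the replicate numbers follow the order of listing. Signals near background, as for *Cpt1a*, *Phyh*, *Abcd2*, *Crot*, the dimmest *Scp2* probe and, in CD, *Decr2*, limit what can be seen. The cDNA clone probes of *Hadha* and *Etfdh* were dim as well.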
